A study of Homo sapiens with 12 samples.

Results

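The interaction of Nutlin with the p53 hairpin was taken in the human hepatoma line HepG2, which is an established cell line, as the response to Nutlin in cells with a hairpin against p53 minus the response in cells with a non-relevant hairpin. It rests on 8 of the 12 Affymetrix arrays of the study. The sh-p53 line had 2 arrays after 24 h with 10 uM Nutlin and 2 after 24 h with DMSO, the solvent, and the sh-con line had 2 arrays of each kind. The other 4 arrays held both lines after 24 h with 0.5 mM AICAR. Members were all genes with a probe set that carries a single gene symbol, 18395 in number, and the 13796 whose mean over the arrays reached 4.58 on the log2 scale were tested.

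The labels name no more than a single line for each hairpin, so an effect of losing p53 and any other difference of the 2 lines cannot be told apart. Cells were biological duplicates plated at 700000 per well, and p-values measure the spread between duplicates of these lines. Each array's median log2 value was between 5.64 and 5.84, and duplicate arrays correlated over the genes tested at r = 0.983 to 0.994. Hepatocyte markers were bright in the 8 arrays: albumin (ALB) lay between 12.51 and 13.06 and alpha-fetoprotein (AFP) between 12.49 and 12.85. The leukocyte markers PTPRC, CD3E and CD163 and the endothelial markers PECAM1, CDH5, VWF and KDR lay below 4.58 in each DMSO and Nutlin group. Some other members of these lists lay above that level. Of 9 leukocyte markers measured, 4 lay below it, or 3 in sh-con Nutlin. Of 10 endothelial markers, 7 lay below it, or 5 in sh-con Nutlin.

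Nutlin occupies the pocket of MDM2 that binds p53, so that p53 escapes ubiquitination and accumulates without DNA damage. Stabilised p53 binds response elements and raises transcription of genes for cell cycle arrest, apoptosis, DNA repair and metabolism, and of MDM2 itself, which closes a negative feedback loop. Many cell cycle genes fall indirectly: CDKN1A (p21) inhibits cyclin-dependent kinases, RB-family proteins stay unphosphorylated, and the repressive DREAM complex sits on E2F and CHR elements of the promoters. A negative interaction below means that Nutlin raised a gene less, and a positive one that Nutlin lowered it less, in sh-p53 than in sh-con, unless the values show otherwise.

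The response was smaller in sh-p53 in both directions. The interaction was called (limma, adjusted p under 0.05) positive for 645 genes (4.68% of those tested) and negative for 376 (2.73%), of which 392 and 173 amounted to at least 2-fold. In sh-p53, Nutlin raised 11 genes (0.0797%) and lowered 0 (0%), with 295 and 564 at an unadjusted p under 0.05. In sh-con it raised 1562 (11.3%) and lowered 2618 (19%). That split depended on scaling, with 1872 and 2237 when arrays were quantile normalised again and 1072 and 2721 with arrays centred on their median. Changes of at least 2-fold either way numbered 8 in sh-p53 and 832 in sh-con. No gene was called in opposite directions in the lines.

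Some counts depended on single arrays. Positive interactions numbered 412 without sh-con DMSO replicate 1 and 420 without sh-p53 DMSO replicate 1. Negative interactions numbered 233 without sh-p53 DMSO replicate 1, 238 without sh-con DMSO replicate 2 and 246 without sh-con Nutlin replicate 1. The 11 genes raised in sh-p53 became 5 without either sh-p53 DMSO array or without sh-p53 Nutlin replicate 1. In sh-con, 736 rose and 1324 fell without DMSO replicate 1, and 847 rose and 1340 fell without Nutlin replicate 2.

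The responses of the lines, which share no array, correlated across the 13796 genes at Pearson r = 0.64 and Spearman rho = 0.61, where genes are not independent replicates. The slope through the origin of the sh-p53 response on the sh-con response was 0.2. The SD of the response over genes was 0.18 in sh-p53 and 0.59 in sh-con. On the first principal component of the 8 arrays, which held 76.2% of the variance, the sh-p53 Nutlin arrays scored -14.2 and -3.9, the sh-p53 DMSO arrays -20 and -25.9, the sh-con Nutlin arrays 46.8 and 53, and the sh-con DMSO arrays -21.2 and -14.7. The sh-p53 arrays with Nutlin thus stood beside the DMSO arrays of both lines.

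**Figure D1:**
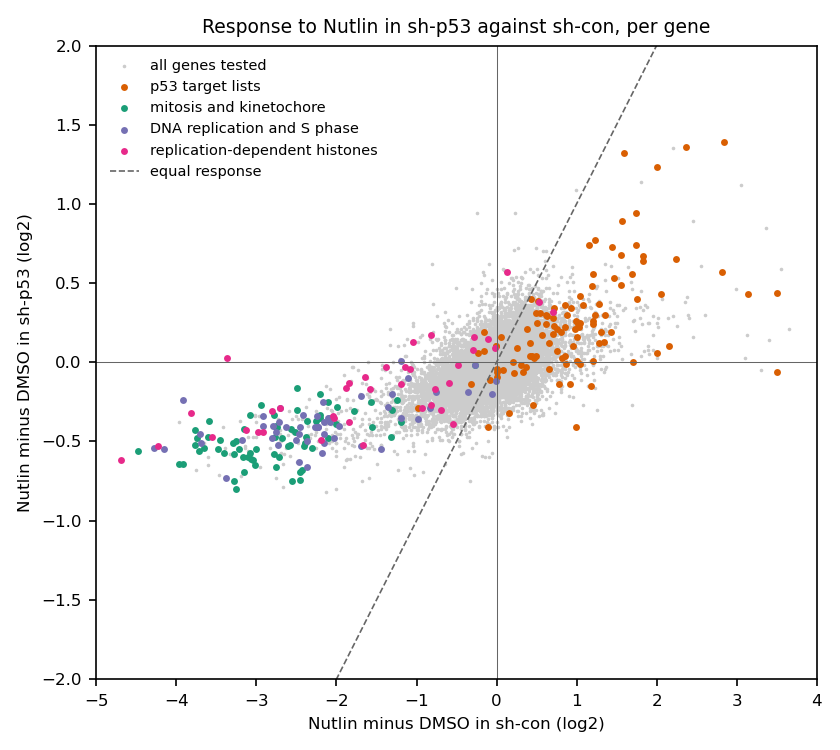
Response of each gene to Nutlin (log2, Nutlin minus DMSO, means of 2 arrays each) in sh-p53 on the vertical axis and in sh-con on the horizontal axis, which spans a wider range. Cell cycle and histone genes reach -4.69 in sh-con and p53 targets 3.51, while in sh-p53 the highest value of a p53 target is 1.39. The dashed line marks an equal response.

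Of 106 p53 target genes tested, out of 119 listed, 46 (43.4%) had a negative interaction and 0 a positive one. The shares over all genes tested were 2.73% and 4.68%. The median interaction of the p53 targets was -0.68 on the log2 scale, against -0.01 over all genes tested. Nutlin raised 6 targets (5.66%) in sh-p53 and 83 (78.3%) in sh-con, against 0.0797% and 11.3% of all genes tested. The median response of the targets was 0.20 in sh-p53 and 0.90 in sh-con. In DMSO the median difference of sh-p53 from sh-con was -0.14 over these genes.

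Genes of the negative feedback on p53 stood at one end, with a median interaction of -0.17. A negative interaction was called for 1 of 8 (12.5%, against 2.73% of all genes tested). MDM2, the ubiquitin ligase of p53, read 11.20 and 11.17 in sh-p53 Nutlin, 9.78 and 9.96 in sh-p53 DMSO, 12.07 and 12.21 in sh-con Nutlin, and 10.63 and 10.47 in sh-con DMSO. Nutlin raised MDM2 by 1.32 ± 0.14 in sh-p53 (SE, 2 arrays per group, adjusted p = 9.03e-05) and by 1.59 ± 0.14 in sh-con, which is 2.49-fold and 3.01-fold. The interaction of MDM2 was -0.27 ± 0.19 (adjusted p = 0.481, 95% interval -0.68 to 0.13). The sh-p53 arrays lay below the sh-con arrays under both treatments, by 0.96 ± 0.14 with Nutlin and by 0.68 ± 0.14 in DMSO. MDM4, the MDM2 relative that masks the p53 activation domain, was the called gene of this list, at -1.0 ± 0.26 (adjusted p = 0.0218). That call was lost on leaving out sh-p53 Nutlin replicate 2, sh-p53 DMSO replicate 2, sh-con Nutlin replicate 1 or sh-con DMSO replicate 2 (adjusted p between 0.0714 and 0.104). PPM1D, the phosphatase WIP1 that acts on p53, had an interaction of -0.38 ± 0.19 (adjusted p = 0.282).

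Growth arrest genes had a negative interaction for 8 of 16 tested (50%, against 2.73% of all genes tested). CDKN1A, the p21 inhibitor of cyclin-dependent kinases, read 7.61 and 7.63 in sh-p53 Nutlin, 6.14 and 6.32 in sh-p53 DMSO, 9.92 and 9.76 in sh-con Nutlin, and 7.06 and 6.93 in sh-con DMSO. No group overlapped another, and the Nutlin arrays of sh-p53 lay between the DMSO and the Nutlin arrays of sh-con. Nutlin raised CDKN1A 2.62-fold in sh-p53 and 7.18-fold in sh-con, and the interaction was -1.45 ± 0.19 (adjusted p = 3.81e-05). ANKRA2, an ankyrin repeat gene, had a larger interaction of -2.25 ± 0.23 (adjusted p = 2.64e-06), and its sh-p53 response of 0.57 ± 0.17 was not called. FBXW7, the substrate receptor of a ubiquitin ligase for cyclin E, had -1.33 ± 0.28, and the stress-induced polo-like kinase gene PLK3 had -1.15 ± 0.20. PLK2, its relative, had -0.40 ± 0.24 (adjusted p = 0.399), with Nutlin responses of 0.74 ± 0.17 in sh-p53 and 1.15 ± 0.17 in sh-con.

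Genes of apoptosis and death receptors had a negative interaction for 8 of 22 tested (36.4%, against 2.73% of all genes tested). TP53I3, a quinone oxidoreductase known as PIG3, read 8.35 and 7.88 in sh-p53 Nutlin, 7.56 and 7.78 in sh-p53 DMSO, 11.53 and 11.50 in sh-con Nutlin, and 7.98 and 8.06 in sh-con DMSO. Only the sh-con Nutlin arrays stood apart. The response was 0.44 ± 0.16 in sh-p53 (adjusted p = 0.541) and 3.50 ± 0.16 in sh-con, and the interaction was -3.05 ± 0.22 (adjusted p = 5.91e-08). TP53INP1, a p53-induced nuclear protein gene, rose in both lines, by 1.36 ± 0.13 in sh-p53 and by 2.37 ± 0.13 in sh-con, with an interaction of -1.01 ± 0.19. FAS, the death receptor, had -1.01 ± 0.21 and APAF1, the scaffold of the apoptosome, -1.05 ± 0.21. The interaction of EDA2R, a TNF receptor family gene, was -0.71 ± 0.23 (adjusted p = 0.0716), and its adjusted p lay between 0.0303 and 0.0445 under 4 alternatives: only the 8 DMSO and Nutlin arrays, arrays quantile normalised again, a stricter filter on dim genes, and sh-con Nutlin replicate 2 left out.

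DNA repair genes had a negative interaction for 4 of 9 tested (44.4%, against 2.73% of all genes tested). RRM2B, the p53-inducible subunit of ribonucleotide reductase, read 8.39 and 8.07 in sh-p53 Nutlin, 7.45 and 7.71 in sh-p53 DMSO, 10.15 and 10.05 in sh-con Nutlin, and 7.85 and 7.87 in sh-con DMSO. Its interaction was -1.59 ± 0.21 (adjusted p = 5.01e-05). POLH, the translesion polymerase eta, had -0.94 ± 0.21 (adjusted p = 0.00652). The calls of XPC, which recognises bulky lesions (-0.85 ± 0.23, adjusted p = 0.0318), and of ASCC3, a helicase of alkylation repair (-0.73 ± 0.21, adjusted p = 0.047), were each lost on leaving out any of several single arrays, with an adjusted p of up to 0.171 for XPC and 0.217 for ASCC3. The list then had 2 to 4 called genes, with 2 of 9 without sh-p53 Nutlin replicate 2, sh-p53 DMSO replicate 1, sh-con Nutlin replicate 1 or either sh-con DMSO array. DDB2, which recognises ultraviolet lesions, had -0.62 ± 0.22 (adjusted p = 0.119) and RPS27L, a ribosomal protein paralogue, -0.46 ± 0.20 (adjusted p = 0.224).

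Metabolism, redox and autophagy genes had a negative interaction for 10 of 23 tested (43.5%, against 2.73% of all genes tested). CMBL, a hydrolase gene, had -1.62 ± 0.21, ACER2, an alkaline ceramidase gene, -1.71 ± 0.32, SUSD6 -1.21 ± 0.22 and TIGAR, which lowers glycolytic flux, -1.19 ± 0.26, each with an adjusted p of 0.00645 or less. SPATA18, a gene of mitochondrial quality control, read 7.10 and 6.82 in sh-p53 Nutlin, 5.84 and 5.63 in sh-p53 DMSO, 9.36 and 9.14 in sh-con Nutlin, and 7.34 and 7.14 in sh-con DMSO. The difference of SPATA18 between the lines was already -1.50 ± 0.17 in DMSO, and its interaction was -0.78 ± 0.24 (adjusted p = 0.0571). The adjusted p of SPATA18 lay between 0.0131 and 0.0438 under 5 alternatives: only the 8 DMSO and Nutlin arrays, arrays quantile normalised again, a replicate block, a stricter filter on dim genes and a variance trend with intensity.

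The other p53 targets had a negative interaction for 15 of 28 tested (53.6%, against 2.73% of all genes tested). PLTP, the phospholipid transfer protein of plasma lipoproteins, had the most negative interaction of all genes tested. It read 7.36 and 7.0 in sh-p53 Nutlin, 7.29 and 7.20 in sh-p53 DMSO, 10.96 and 10.89 in sh-con Nutlin, and 7.44 and 7.39 in sh-con DMSO. In sh-p53 the Nutlin and DMSO arrays overlapped, with a response of -0.06 ± 0.15, while in sh-con Nutlin raised PLTP 11.4-fold. Its interaction was -3.57 ± 0.21 (adjusted p = 8.54e-09). TRIM22, an antiviral ubiquitin ligase gene, had -2.71 ± 0.24, the zinc finger gene ZNF561 -2.05 ± 0.20 and the lysosomal membrane gene LAPTM5 -1.95 ± 0.20. TRIM22 averaged below 4.58 in the sh-p53 Nutlin, sh-p53 AICAR and both DMSO groups, so the size of its change is uncertain. It passed the filter on mean level through the sh-con Nutlin and sh-con AICAR arrays, so the filter favoured its call.

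**Figure D2:**
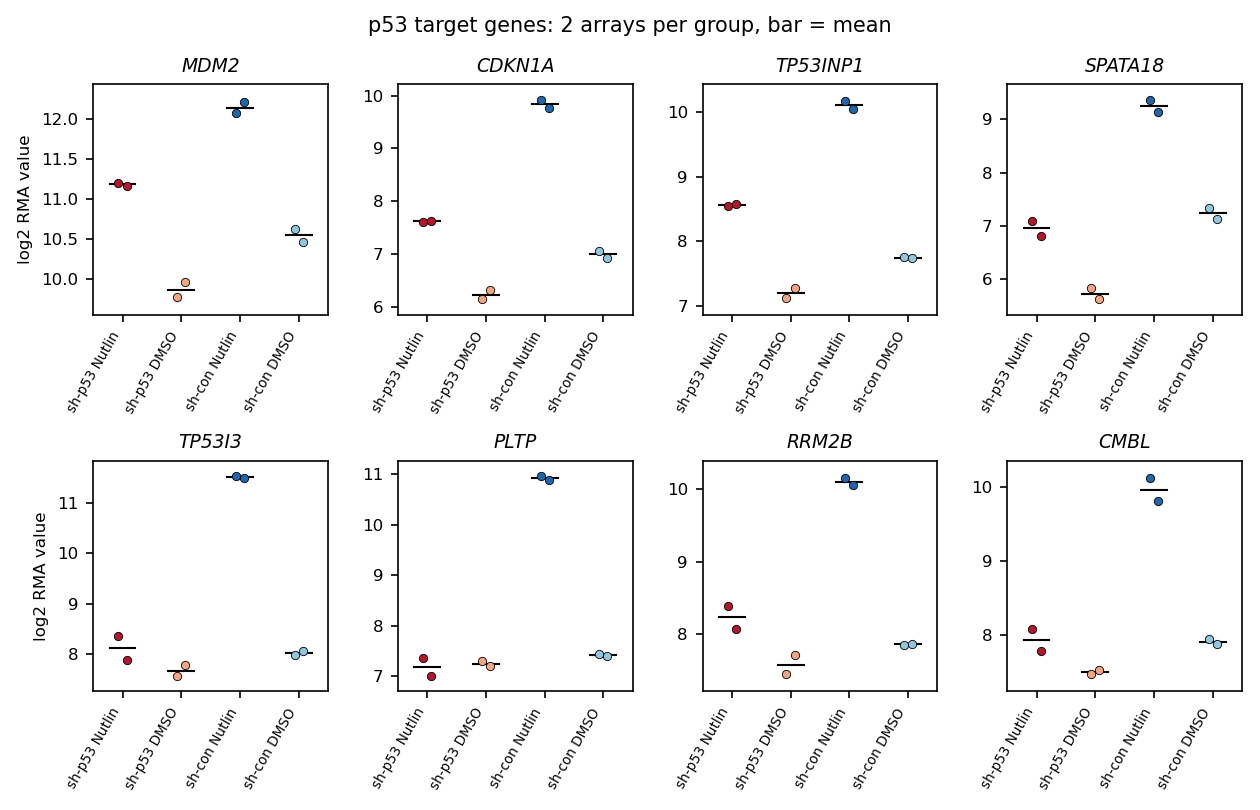
Log2 RMA values of 8 p53 target genes in the 4 groups, with each array as a point, the mean as a bar and a vertical scale of its own per gene. MDM2, CDKN1A, TP53INP1 and SPATA18 are higher with Nutlin in both lines, whereas TP53I3 and PLTP stand apart in the sh-con Nutlin arrays, with interactions of -3.05 and -3.57.

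The most negative interactions included genes outside the p53 lists. CSTA, a cysteine protease inhibitor, read 5.03 and 4.96 in sh-p53 Nutlin, 4.93 and 4.79 in sh-p53 DMSO, 8.51 and 8.59 in sh-con Nutlin, and 5.10 and 5.20 in sh-con DMSO, with an interaction of -3.26 ± 0.19. LCN15, a lipocalin gene, had -3.08 ± 0.21, SERPINE2, an inhibitor of thrombin and other serine proteases, -2.96 ± 0.24, and NUPR1, a stress-induced nuclear protein, -2.53 ± 0.23. MR1, which presents microbial metabolites to T cells, had -2.52 ± 0.22 and TMC7, a channel-like membrane protein gene, -2.31 ± 0.23. CLTRN, the collectrin gene, had -3.35 ± 0.22 and FRMPD2, a scaffold protein gene, -2.97 ± 0.29. CLTRN and FRMPD2 averaged below 4.58 in sh-p53 Nutlin, sh-p53 AICAR and both DMSO groups, so the sizes of their changes are uncertain. Both passed the filter on mean level through the sh-con Nutlin and sh-con AICAR arrays, so the filter favoured their calls. In all genes named here, sh-con Nutlin held the highest 2 of the 8 arrays.

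The 11 genes that Nutlin raised in sh-p53 included CDKN1A, MDM2, TP53INP1, SPATA18, SESN1 and ZMAT3 of the p53 lists. CDKN1A, MDM2, TP53INP1 and ACTA2 kept an adjusted p of 0.0266 or less in sh-p53 with any array left out, and the other 7 lost the call without at least 1 array. ACTA2, smooth muscle actin, rose by 1.35 ± 0.16 in sh-p53 and by 2.20 ± 0.16 in sh-con. CYGB, the cytoglobin gene, rose by 1.12 ± 0.16 in sh-p53 and by 3.05 ± 0.16 in sh-con, and its interaction was -1.93 ± 0.23. Its sh-p53 call was lost without either sh-p53 DMSO array or without sh-p53 Nutlin replicate 2 (adjusted p 0.0842 to 0.116), and that of SPATA18 without sh-p53 DMSO replicate 2 or sh-p53 Nutlin replicate 1 (0.0842 and 0.0905). SULT2A1, a hydroxysteroid sulfotransferase chosen after its values were seen, read 8.80 and 8.60 in sh-p53 Nutlin, 7.47 and 7.76 in sh-p53 DMSO, 9.52 and 9.50 in sh-con Nutlin, and 8.61 and 8.43 in sh-con DMSO. SULT2A1 rose by 1.09 ± 0.16 in sh-p53 and by 0.99 ± 0.16 in sh-con, with an interaction of 0.10 ± 0.23 (95% interval -0.39 to 0.59). The sh-p53 call of SULT2A1 was lost without sh-p53 DMSO replicate 1 (adjusted p = 0.283) or sh-p53 Nutlin replicate 1 (adjusted p = 0.123).

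Mitosis and kinetochore genes had the highest median interaction of the lists. Of 70 tested, 69 had a positive interaction (98.6%, against 4.68% of all genes tested) and 0 a negative one. Nutlin lowered 69 of the 70 in sh-con (98.6%, against 19% of all genes tested) and 0 in sh-p53. The sh-p53 value was still below zero for all 70, as it was for 7455 of all 13796 genes. The median response was -0.48 in sh-p53 and -2.75 in sh-con, so that the first was 17.6% of the second. BUB3, a checkpoint protein that also works in interphase, was the gene not called, at 0.26 ± 0.21.

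CDK1, the mitotic kinase, read 7.74 and 7.43 in sh-p53 Nutlin, 7.97 and 8.49 in sh-p53 DMSO, 4.45 and 3.85 in sh-con Nutlin, and 8.16 and 7.98 in sh-con DMSO. The sh-con Nutlin arrays stood far below the other 6, and the sh-p53 Nutlin arrays lay just below both DMSO groups. The response of CDK1 was -0.64 ± 0.20 in sh-p53 (adjusted p = 0.406) and -3.92 ± 0.20 in sh-con, a 15.1-fold fall, and the interaction was 3.28 ± 0.28 (adjusted p = 3.4e-07). SPC25 and NUF2, subunits of the NDC80 complex that holds microtubules at kinetochores, had 3.91 ± 0.28 and 3.34 ± 0.22. KIF11, the kinesin that separates spindle poles, had 3.34 ± 0.25, and PBK, a mitotic kinase, 3.59 ± 0.24. SPC25, KIF11 and CDK1 averaged below 4.58 in sh-con Nutlin, so the sizes of their changes are uncertain.

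DNA replication and S phase genes had a positive interaction for 46 of 53 tested (86.8%, against 4.68% of all genes tested) and a negative one for 0. Nutlin lowered 50 of the 53 in sh-con (94.3%, against 19% of all genes tested) and 0 in sh-p53. CDC6, which loads the replicative helicase on origins, read 9.86 and 9.71 in sh-p53 Nutlin, 9.89 and 10.16 in sh-p53 DMSO, 6.46 and 6.07 in sh-con Nutlin, and 10.27 and 10.11 in sh-con DMSO. Its interaction was 3.68 ± 0.23 (adjusted p = 1.27e-08). DTL, the substrate receptor of a ubiquitin ligase for CDT1 and p21, had 3.61 ± 0.25, CLSPN, the checkpoint adaptor claspin, 3.74 ± 0.19, and the exonuclease gene EXO1 3.26 ± 0.24, with CLSPN and EXO1 below 4.58 in sh-con Nutlin. Genes not called included POLD1, the catalytic subunit of polymerase delta, at 0.62 ± 0.21, and RPA1, a subunit of the single-strand binding protein, at 0.53 ± 0.19. PCNA, the replication clamp and itself a known p53 target, chosen after its values were seen, had -0.10 ± 0.20, with a sh-con response of -0.01 ± 0.14.

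Promoter windows of 4 of these genes are given because they hold a CHR or E2F-like match within 50 bases of the start. Sequences are those of RefSeq with assembly GRCh38.p14, 250 bases before the start of each gene, on the + strand. They lie at chr10:92592880-92593129 for KIF11, chr10:60778228-60778477 for CDK1, chr17:40287629-40287878 for CDC6 and chr1:212035498-212035747 for DTL. Capitals mark a CHR match (TTTGAA or TTCGAA on either strand) in KIF11 and CDK1 and an E2F-like match (TTTCGCGC, TTTGGCGC, TTTCCCGC or TTTGGCGG on either strand) in CDC6 and DTL. Matches of the other motifs stay in lower case, among them an E2F-like match (TTTCGCGC) in CDK1 and CCAAT boxes in all 4 windows.
KIF11: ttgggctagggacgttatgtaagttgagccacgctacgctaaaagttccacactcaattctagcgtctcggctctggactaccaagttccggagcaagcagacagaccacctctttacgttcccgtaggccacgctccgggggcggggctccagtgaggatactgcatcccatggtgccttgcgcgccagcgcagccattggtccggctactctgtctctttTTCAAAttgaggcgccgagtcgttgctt
CDK1: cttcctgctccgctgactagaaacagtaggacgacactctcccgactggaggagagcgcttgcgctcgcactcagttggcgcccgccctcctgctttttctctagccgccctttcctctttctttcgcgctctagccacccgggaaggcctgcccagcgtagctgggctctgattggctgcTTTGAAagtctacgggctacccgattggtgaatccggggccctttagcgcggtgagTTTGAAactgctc
CDC6: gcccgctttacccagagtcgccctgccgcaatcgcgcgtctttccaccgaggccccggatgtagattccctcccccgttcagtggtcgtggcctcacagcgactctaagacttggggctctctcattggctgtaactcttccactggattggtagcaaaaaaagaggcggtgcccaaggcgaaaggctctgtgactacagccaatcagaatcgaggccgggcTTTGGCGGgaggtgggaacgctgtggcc
DTL: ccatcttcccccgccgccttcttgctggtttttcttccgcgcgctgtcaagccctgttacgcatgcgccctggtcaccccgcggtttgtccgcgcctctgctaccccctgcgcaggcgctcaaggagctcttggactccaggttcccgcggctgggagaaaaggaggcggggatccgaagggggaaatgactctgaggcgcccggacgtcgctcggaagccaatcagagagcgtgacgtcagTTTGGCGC
The first base of the match lay 28 bases before the start in KIF11, 69 and 13 bases before it in CDK1, 28 bases before it in CDC6 and 8 bases before it in DTL. A CHR match was present in 34 of 74 windows (45.9%) of mitosis and kinetochore genes, against 14.3% of all 35116 windows. The CHR share was 34% for histone genes, 11.9% for p53 targets, 9.09% for homologous recombination and Fanconi genes and 5.26% for S phase genes. An E2F-like match was present in 18 of 57 windows (31.6%) of S phase genes, against 2.83% of all windows. The E2F-like share was 24.5% for histone genes, 8.11% for mitosis genes, 6.25% for p53 targets and 6.06% for homologous recombination and Fanconi genes. A CCAAT box (CCAAT on either strand) was present in 70.3% of mitosis windows and 86.8% of histone windows, against 32% of all. Its share was 56.1% for S phase genes, 51.5% for homologous recombination and Fanconi genes and 28.1% for p53 targets. None of these motifs contains another. A p53 full site with at most 1 mismatch was found in 2 of 160 p53 target windows (1.25%), 2.7% of mitosis windows and 1.89% of histone windows, against 0.629% of all. Matches are descriptions of the letters, and no factor was measured.

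Homologous recombination and Fanconi genes had a positive interaction for 21 of 26 tested (80.8%, against 4.68% of all genes tested). Their median response was -0.42 in sh-p53 and -2.02 in sh-con. BRCA1, the scaffold of double-strand break repair, read 7.60 and 7.49 in sh-p53 Nutlin, 7.75 and 8.08 in sh-p53 DMSO, 4.99 and 4.59 in sh-con Nutlin, and 8.10 and 7.90 in sh-con DMSO. Its interaction was 2.84 ± 0.23 (adjusted p = 1.79e-07). FANCI, of the complex that marks crosslinks, had 2.85 ± 0.21, and UBE2T, its ubiquitin-conjugating enzyme, 2.63 ± 0.22. PALB2, the partner of BRCA2, had 0.46 ± 0.18 (adjusted p = 0.159).

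Replication-dependent histone genes had a positive interaction for 24 of 39 tested (61.5%, against 4.68% of all genes tested). A further 9 measured members were left out as dim. H2BC14, an H2B gene, had the most positive interaction of all genes tested. It read 10.25 and 10.02 in sh-p53 Nutlin, 10.77 and 10.74 in sh-p53 DMSO, 6.05 and 5.77 in sh-con Nutlin, and 10.66 and 10.54 in sh-con DMSO. The interaction was 4.07 ± 0.21 (adjusted p = 2.13e-09), where the sh-con fall was 25.8-fold. H2AC4 had 3.70 ± 0.22, H3C2 3.50 ± 0.23 and H2BC7 3.39 ± 0.32. Histone genes are near-identical in sequence, so a probe set may read several of them.

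**Figure D3:**
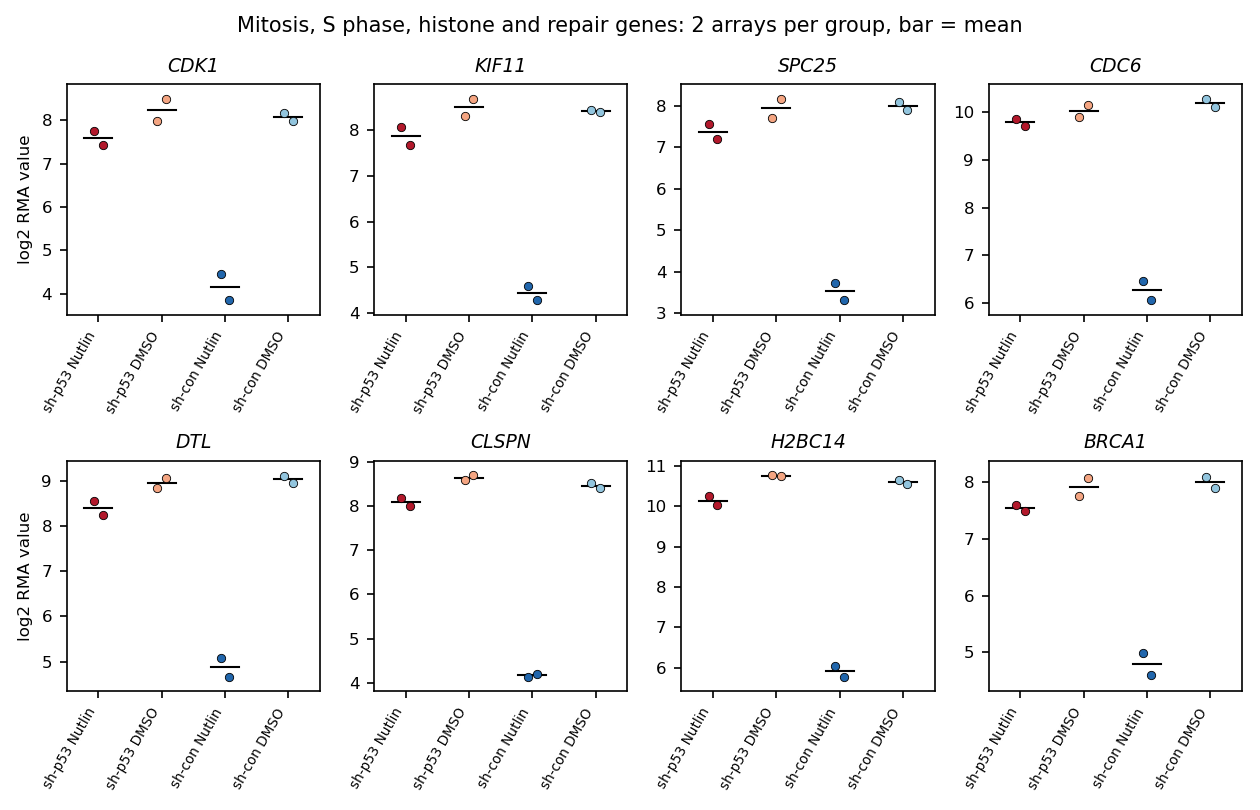
Log2 RMA values of 8 genes of mitosis, S phase, histones and repair in the 4 groups, with each array as a point, the mean as a bar and a vertical scale of its own per gene. In each panel the sh-con Nutlin arrays are the lowest, and the sh-p53 Nutlin arrays lie close to the DMSO arrays.

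Transcription factors of the cell cycle had a positive interaction for 10 of 21 tested (47.6%, against 4.68% of all genes tested). MYBL2, a subunit of the activating complex of mitotic genes, had 2.44 ± 0.20, FOXM1, which works with it, 2.29 ± 0.20, and the RB relative RBL1 1.74 ± 0.22. E2F5 had 1.27 ± 0.23, while E2F2, an activator of S phase genes, had 0.53 ± 0.24 (adjusted p = 0.234). Of the cyclins and kinases of G1, 5 of 15 (33.3%) had a positive interaction, with a median of 0.10. These included the phosphatase CDC25A at 2.68 ± 0.27, CDK2 at 2.0 ± 0.26 and SKP2, which targets p27 for degradation, at 1.63 ± 0.19.

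Growth genes followed with smaller differences. Ribosome biogenesis genes had a positive interaction for 9 of 42 tested (21.4%, against 4.68% of all genes tested), with a median of 0.46. Nutlin lowered 33 of the 42 in sh-con (78.6%, against 19% of all genes tested). Without sh-p53 DMSO replicate 1 the interaction was called for 2 of the 42. NOLC1, a nucleolar chaperone, had 0.93 ± 0.18 (adjusted p = 0.00288). Purine and pyrimidine synthesis genes had one for 9 of 29 with a median of 0.39, and for 5 of 29 without sh-p53 DMSO replicate 1 or sh-con Nutlin replicate 2. The 9 of 29 made up 31%, against 4.68% of all genes tested. SHMT1, which feeds thymidylate synthesis with folate carbon, had 1.58 ± 0.22, MTHFD1, of the same pathway, 1.21 ± 0.20, and DUT, the dUTPase, 1.13 ± 0.19. Of the reference genes, 1 of 17 was called (5.88%), a share near the 4.68% positive among all genes tested. It was TUBB, a tubulin of the spindle as well as of the interphase skeleton, at 0.94 ± 0.19.

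**Figure D4:**
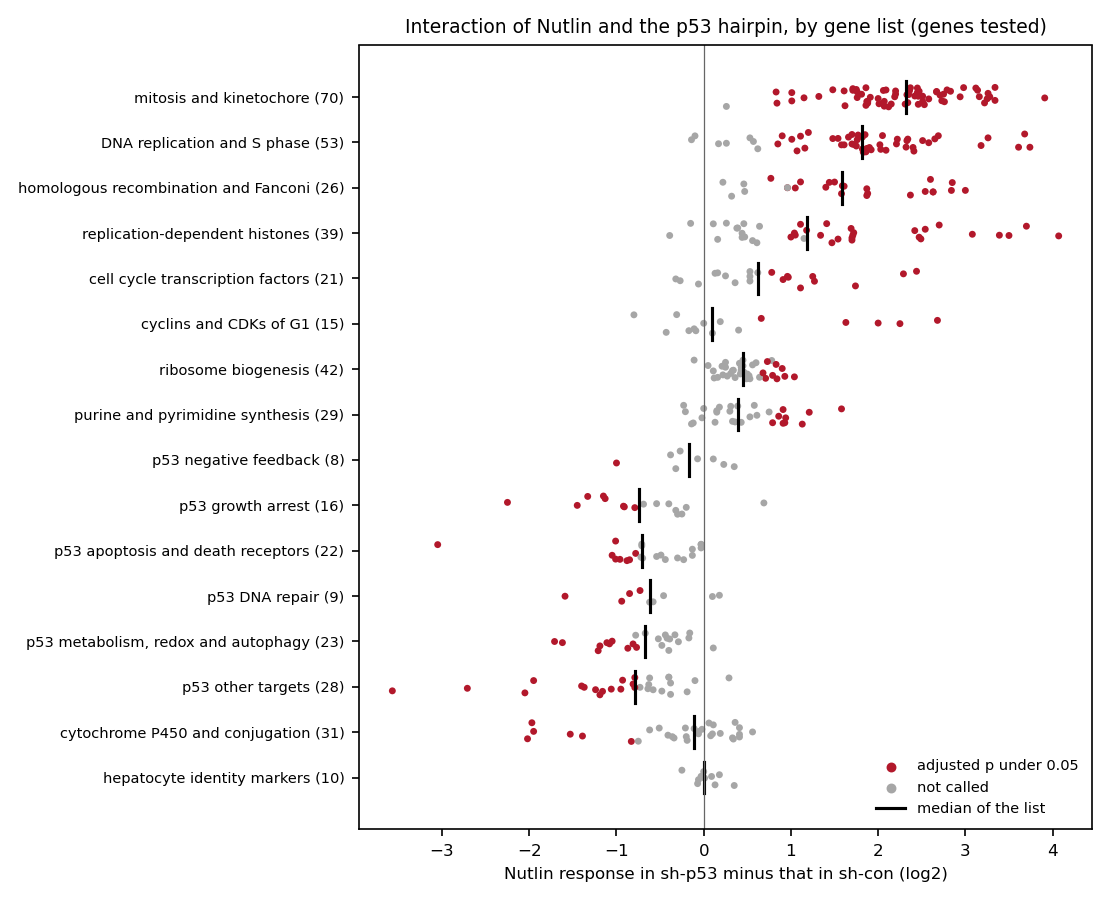
Interaction (log2, Nutlin response in sh-p53 minus that in sh-con) of each gene tested in 16 lists, with called genes in red, others in grey, the list median as a bar and the number tested in brackets. Medians run from 2.32 in mitosis and kinetochore genes to -0.79 in other p53 targets, and hepatocyte markers lie around 0.01.

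Lists of liver genes differed in their share of called interactions. Cytochrome P450 and conjugation genes had a negative interaction for 6 of 31 tested (19.4%, against 2.73% of all genes tested), with a median of -0.11. A further 12 measured members were left out as dim. CYP4F3 and CYP4F2, hydroxylases of leukotrienes and fatty acids, had -2.02 ± 0.19 and -1.97 ± 0.24, and CYP3A5, a drug-metabolising enzyme, -1.95 ± 0.24. Genes of these families resemble each other, so a probe set may read several. Among 23 genes of glucose output, 1 (4.35%) was called, a share near that of all genes. It was G6PC1, the glucose-6-phosphatase, with an interaction of -1.81 ± 0.21. G6PC1 read 4.95 and 5.09 in sh-p53 Nutlin, 4.97 and 4.92 in sh-p53 DMSO, 7.37 and 7.19 in sh-con Nutlin, and 5.34 and 5.44 in sh-con DMSO.

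Among 40 lipoprotein and secreted liver protein genes, 2 (5%) had a positive and 1 (2.5%) a negative interaction, shares near the 4.68% and 2.73% of all genes tested. MTTP, which loads lipid on apolipoprotein B, read 8.80 and 8.36 in sh-p53 Nutlin, 8.78 and 8.84 in sh-p53 DMSO, 6.48 and 6.13 in sh-con Nutlin, and 8.68 and 8.61 in sh-con DMSO, with an interaction of 2.11 ± 0.23 (adjusted p = 4.07e-06). Haptoglobin (HP) had 1.54 ± 0.29 and the corticosteroid-binding globulin gene SERPINA6 -0.93 ± 0.20. These were the 3 called genes. Of 27 lipid synthesis genes 4 (14.8%) had a positive interaction, and 1 without sh-p53 DMSO replicate 1, sh-p53 DMSO replicate 2 or sh-con DMSO replicate 1. ELOVL6, a fatty acid elongase, had 1.52 ± 0.20, and the calls of SCD, SQLE and EBP were lost on leaving out single arrays, with an adjusted p of up to 0.102 for SCD, 0.134 for SQLE and 0.161 for EBP. CPT1A, which admits fatty acids to mitochondria, had -1.10 ± 0.24 (adjusted p = 0.00597). Of 10 hepatocyte identity markers 0 were called, and their mean over arrays lay between 10.92 and 11.01 in sh-p53 Nutlin, 10.89 and 10.93 in sh-p53 DMSO, 11.02 and 11.06 in sh-con Nutlin, and 10.99 and 11.05 in sh-con DMSO.

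Markers of other cell types moved in a few genes. Of 4 endothelial markers tested, 2 had a negative interaction, against 2.73% of all genes tested. The other 6 measured were left out as dim, so the count is not a share of the list. LYVE1, a hyaluronan receptor of lymphatic and sinusoidal endothelium, read 4.55 and 4.50 in sh-p53 Nutlin, 4.34 and 4.30 in sh-p53 DMSO, 8.37 and 7.77 in sh-con Nutlin, and 4.47 and 4.36 in sh-con DMSO, with an interaction of -3.45 ± 0.26. The size of that change is uncertain, since the low groups averaged below 4.58. LYVE1 passed the filter on mean level through the sh-con Nutlin arrays, where it was high, so the filter favoured its call. ENG, the endoglin gene, had -0.91 ± 0.22 (adjusted p = 0.0121), a call lost without sh-p53 Nutlin replicate 1, sh-p53 DMSO replicate 1, sh-con Nutlin replicate 2 or sh-con DMSO replicate 1 (adjusted p 0.0675 to 0.086). The mean of the 10 endothelial markers was 4.67 and 4.80 in sh-p53 Nutlin, 4.63 and 4.76 in sh-p53 DMSO, 5.20 and 5.29 in sh-con Nutlin, and 4.63 and 4.65 in sh-con DMSO. PECAM1, CDH5, VWF, KDR and TEK averaged below 4.58 in each of these groups. LYVE1 and TIE1 averaged below it in each but sh-con Nutlin. Of 6 fibroblast and stellate markers 1 was called (16.7%, against 2.73% negative among all genes tested). It was ACTA2, at -0.85 ± 0.23 (adjusted p = 0.0263). The ACTA2 call was lost with arrays centred on their median (adjusted p = 0.0527), and without sh-p53 Nutlin replicate 2, either sh-p53 DMSO array, sh-con Nutlin replicate 1 or either sh-con DMSO array (0.0654 to 0.115). Of 7 cholangiocyte and progenitor markers 1 (14.3%) was called, KRT19, at -1.01 ± 0.20, and of 5 leukocyte markers 0.

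Levels under Nutlin alone combine the interaction with the difference of the lines in DMSO. With Nutlin, 1807 genes (13.1%) were higher and 1147 (8.31%) lower in sh-p53 than in sh-con, whereas 36 were higher and 53 lower in DMSO. Quantile normalised again, the arrays gave 1797 higher and 1576 lower with Nutlin. The counts with Nutlin became 889 higher without sh-p53 Nutlin replicate 1, 958 higher without sh-con Nutlin replicate 2, and 732 lower without sh-con Nutlin replicate 1. H2BC14 (4.23 ± 0.15), CLSPN (3.92 ± 0.13) and SPC25 (3.85 ± 0.20) were among the 4 highest, and SERPINE2 (-3.98 ± 0.17), PLTP (-3.75 ± 0.15), CSTA (-3.55 ± 0.13) and LYVE1 (-3.55 ± 0.18) were the 4 lowest. The last of the high genes, PLA2G2A, a secreted phospholipase, read 10.66 and 10.39 in sh-p53 Nutlin, 10.52 and 10.48 in sh-p53 DMSO, 6.85 and 6.56 in sh-con Nutlin, and 7.08 and 7.09 in sh-con DMSO. Its line difference was 3.82 ± 0.16 with Nutlin and 3.42 ± 0.16 in DMSO, and the interaction was 0.40 ± 0.22 (adjusted p = 0.343).

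AICAR, which activates the energy-sensing kinase AMPK, gave a further interaction, and the difference between the Nutlin and the AICAR interaction needs no DMSO array. That difference was positive for 724 genes (5.25%) and negative for 363 (2.63%), a split of 66.6% positive that became 54.1% when arrays were quantile normalised again (858 and 728). Counts fell to 409 and 172 without sh-p53 Nutlin replicate 1. They were 426 and 209 without sh-p53 AICAR replicate 1. Positive calls fell to 466 without sh-con Nutlin replicate 2, and negative calls to 184 without sh-con Nutlin replicate 1 and to 221 without sh-p53 AICAR replicate 2.

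Cell cycle genes made up the high end. Of 70 mitosis and kinetochore genes, 68 had a positive difference of interactions (97.1%, against 5.25% of all genes tested), with a median of 2.29. The AICAR interaction itself was called for 0 of the 70, with a median of -0.02. CDK1 read 7.74 and 7.43 in sh-p53 Nutlin, 8.47 and 8.80 in sh-p53 AICAR, 4.45 and 3.85 in sh-con Nutlin, and 9.02 and 9.0 in sh-con AICAR, with a difference of interactions of 3.81 ± 0.28. That of H2BC14 was 4.52 ± 0.21 (adjusted p = 7.54e-10).

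Of the 106 p53 targets, 15 (14.2%) had a negative difference and 1 (0.943%) a positive one, against 2.63% and 5.25% of all genes tested. The median difference over the targets was -0.19. The AICAR interaction itself was negative for 21 of them (19.8%, against 0.71% of all genes tested) and positive for 0, with a median of -0.46. TP53I3 had an AICAR interaction of -2.49 ± 0.22 beside -3.05 ± 0.22 for Nutlin, and a difference of -0.56 (adjusted p = 0.139, 95% interval -1.04 to -0.09). The difference of MR1 was -0.45 (adjusted p = 0.236, 95% interval -0.91 to 0.01) and that of MDM2 0.25 ± 0.19 (adjusted p = 0.471). For CDKN1A the difference was -0.95 ± 0.19 (adjusted p = 0.00358). LYVE1 (-3.24 ± 0.26) and LCN15 (-2.66 ± 0.21) had the most negative differences, with AICAR interactions of -0.20 ± 0.26 and -0.42 ± 0.21 that were not called. The size for LYVE1 is uncertain, since it averaged below 4.58 in sh-p53 Nutlin, sh-p53 AICAR and both DMSO groups. CCN1, a matricellular protein gene, had -2.21 ± 0.23. PLAU, the urokinase gene, had -1.99 ± 0.20 and read 5.63 and 5.74 in sh-p53 Nutlin, 8.22 and 8.30 in sh-p53 AICAR, 5.70 and 5.83 in sh-con Nutlin, and 6.33 and 6.38 in sh-con AICAR, so that its difference lay in the AICAR arrays.

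**Figure D5:**
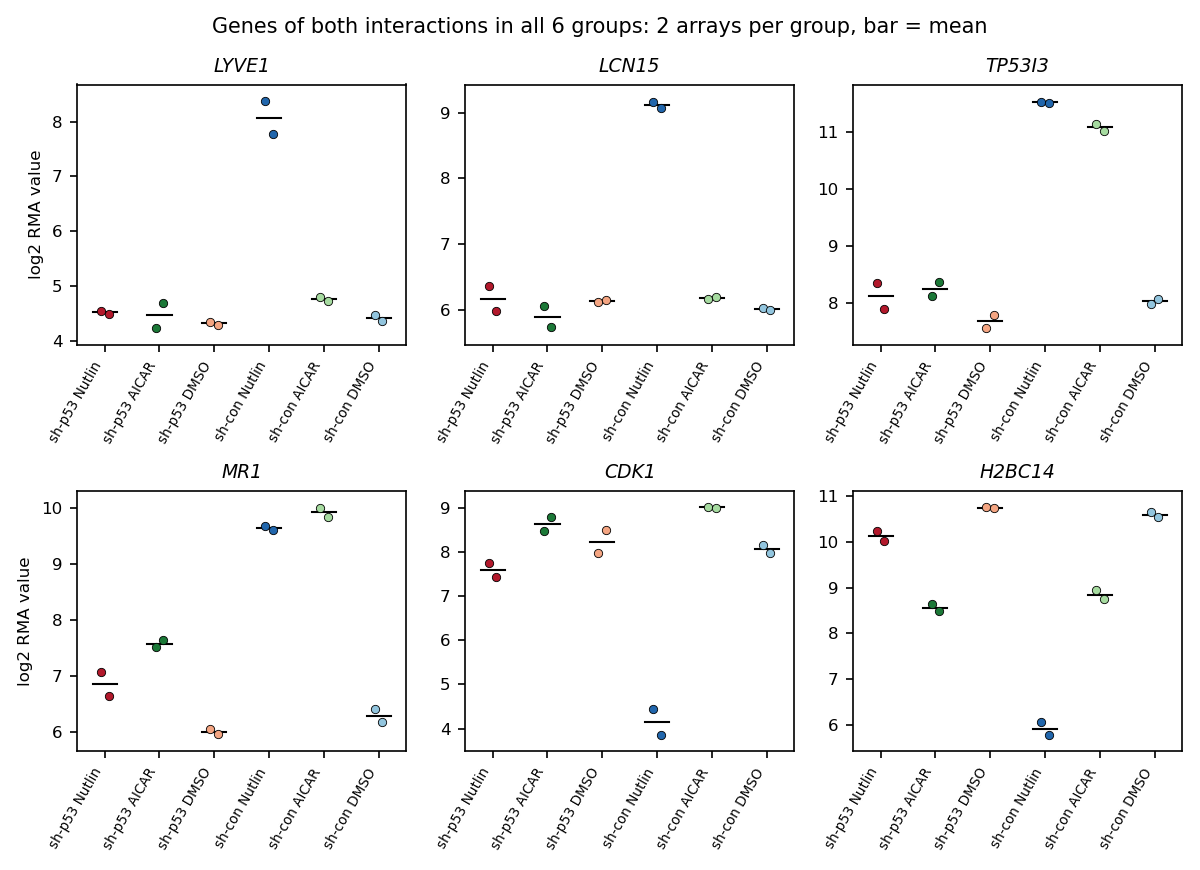
Log2 RMA values of 6 genes in all 6 groups, with each array as a point, the mean as a bar and a vertical scale of its own per gene. LYVE1 and LCN15 are high in the sh-con Nutlin arrays, TP53I3 and MR1 in both the sh-con Nutlin and the sh-con AICAR arrays, and CDK1 and H2BC14 are lowest in the sh-con Nutlin arrays.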

How the data were processed

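Biotin-labelled cDNA from 200 ng of total RNA was hybridised, per the labels' protocols, to Human Gene arrays of Affymetrix. Deposited values are on the log2 scale. The submitters' processing notes name RMA and Partek, and no source here gives their settings. RMA draws arrays towards 1 distribution, gives no detection call and understates changes of dim genes. Of 33297 probe sets, 19460 had 1 gene symbol. Each gene took its brightest probe set, and 4599 genes under the 25th percentile (4.58) were left out.

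All 12 arrays entered 1 group-means fit with limma 3.58.1 (R 4.3.3; data.table, version 1.17.8), with 6 residual and 11.4 prior degrees of freedom. P-values were adjusted by Benjamini-Hochberg over 13796 genes in each of 7 contrasts, 2-sided, and errors are those of the fit. The fit was tested on simulated data. Alternatives covered scaling, filters, probe sets, arrays used, the variance trend, a replicate block and each array left out.

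Members, gene lists and tests were chosen with earlier results of these data known. Named were the 12 highest and lowest called interactions, up to 4 called and 2 other members per list, up to 6 at each end of other contrasts (4 under Nutlin alone), and CDKN1A, MDM2 and TP53I3; exceptions are marked. The mRNA that the hairpin targets is not reported here.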

Additional observations from a re-analysis of the deposited data

Results flagged for a closer look

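The response to Nutlin differed between the lines by the interaction test for 645 genes with a positive and 376 with a negative value. The test of the difference between the Nutlin and the AICAR interaction called 724 and 363.

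Single genes with the most negative difference of response between the lines, sh-p53 minus sh-con on the log2 scale, were PLTP at -3.57, LYVE1 at -3.45, CLTRN at -3.35, CSTA at -3.26, LCN15 at -3.08, TP53I3 at -3.05, FRMPD2 at -2.97, SERPINE2 at -2.96, TRIM22 at -2.71, NUPR1 at -2.53, MR1 at -2.52 and TMC7 at -2.31. The most positive were H2BC14 at 4.07, SPC25 at 3.91, CLSPN at 3.74, H2AC4 at 3.70, CDC6 at 3.68, DTL at 3.61, PBK at 3.59, H3C2 at 3.50, H2BC7 at 3.39, NUF2 and KIF11 at 3.34 and CDK1 at 3.28.

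Interactions were also called outside the gene comparison, at shares no higher than among probe sets with 1 symbol. In a fit of all probe sets, 446 positive and 227 negative interactions were called among 16097 with 1 symbol (4.18%). There were 42 and 19 among 1462 probe sets with several symbols (4.17%), and 60 and 14 among 7414 with no listed gene (0.998%).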

How the results depend on the processing

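No called interaction of a named gene changed sign under any alternative. Of 2650 values for 167 named genes, 118 lost the call (19 genes) and 98 gained it (32 genes). Quantile normalising again gave 693 positive and 584 negative interactions, 1 gene lowered in sh-p53 and 728 negative differences from AICAR. Genes lowered in sh-p53 numbered 11 from the 8 DMSO and Nutlin arrays alone (19 raised), 11 with a variance trend and 12 with a stricter filter. Negative differences from AICAR numbered 210 with arrays centred and 219 from the 8 Nutlin and AICAR arrays. With the whole window of 300 bases the CHR share was 64.9% for mitosis genes, against 16.4% of all windows. The E2F-like share was then 45.6% for S phase genes, against 3.35% of all windows.

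Leaving out each array in turn gave 412 to 696 positive and 233 to 321 negative interactions, 5 to 12 genes raised and 0 lowered in sh-p53, 736 to 1666 raised and 1324 to 2644 lowered in sh-con, 889 to 1785 higher and 732 to 1066 lower in sh-p53 under Nutlin, and 409 to 1065 and 172 to 460 for the difference from AICAR. It gave 37 to 47 negative p53 targets, and 67 to 69 mitosis, 44 to 46 S phase, 18 to 22 recombination and 22 to 24 histone genes positive. The cause of these changes was not tested.

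Deviations of same-numbered arrays correlated between groups at -0.558 to 0.567, so not every pair was above 0.1 and the numbers were not taken as pairing. Between sh-p53 Nutlin, sh-con Nutlin, sh-con DMSO and sh-con AICAR the correlations were 0.251 to 0.567, between sh-p53 DMSO and sh-p53 AICAR 0.264, and across these sets -0.558 to 0.028. Whether arrays share a batch under other numbers was not tested. With a replicate block, 670 interactions were positive and 386 negative. Dim genes limit the sizes given, and 2 arrays per group limit every comparison.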

Other observations

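Small nucleolar RNAs, which guide chemical changes of ribosomal RNA and mostly lie in introns of host genes, were looked at after their values had been seen. Of 76 SNORD transcripts tested, 19 had a positive interaction and 0 a negative one, where all genes tested gave 4.68% and 2.73%. The SNORD median was 0.56, against -0.01 over all genes. In sh-con, Nutlin lowered 42 and raised 2 of the 76, where it lowered 19% and raised 11.3% of all genes tested. In sh-p53 it changed 0 of the 76 (SNORD median -0.05 in sh-p53 and -0.61 in sh-con). SNORD30 read 9.65 and 9.49 in sh-p53 Nutlin, 9.63 and 9.82 in sh-p53 DMSO, 7.41 and 7.21 in sh-con Nutlin, and 9.43 and 9.45 in sh-con DMSO, with an interaction of 1.98 ± 0.21 (adjusted p = 4.69e-06). Of 56 SNORA transcripts, 5 were positive and 0 negative, with a median of 0.19.

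Outside every list lay 442 positive and 310 negative calls. Chosen after their values were seen, MKI67, the proliferation marker Ki-67, had 3.07 ± 0.21, and ESCO2, which acetylates cohesin, 3.13 ± 0.21. On the negative side stood the diacylglycerol kinase gene DGKA (-2.30 ± 0.23), HHAT, which palmitoylates hedgehog proteins (-2.12 ± 0.20), and TNFSF10, the death ligand TRAIL (-1.79 ± 0.26).

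Stress and signalling lists had few calls, and several were lost on leaving out 1 array. The interaction was positive for 1 (2.94%) and negative for 1 (2.94%) of 34 amino acid response genes. It was negative for 1 of 24 NRF2 genes (SRXN1, 4.17%) and 1 of 38 autophagy and lysosome genes (SQSTM1, 2.63%). These shares are near those of all genes tested, 4.68% positive and 2.73% negative. Of 19 immediate early genes, 3 (15.8%) had a negative interaction (DUSP5, DUSP1 and FOSL2). Among the 12 fits with 1 array left out, none of the 5 genes named here kept its call in each. The lowest count in the NRF2, autophagy and immediate early lists was 0 each, as it was for the positive amino acid response gene, PHGDH. The interaction was positive for 1 of 21 interferon genes (4.76%), PSMB9 at 0.96 ± 0.21. It was called for 0 of 22 unfolded protein response and 0 of 27 glycolysis and hypoxia genes. Of 26 fatty acid oxidation genes, 1 (3.85%) was positive and 2 (7.69%) were negative. The lowest counts on leaving out 1 array were 0 positive and 1 negative.

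Among the 4599 dim genes left out of the test, 28 had a negative and 1 a positive interaction when no filter was used. Of the 13796 genes tested, 376 (2.73%) had a negative and 645 (4.68%) a positive interaction. The split of the dim genes is not a result about them. A gene low in sh-con Nutlin alone and high elsewhere would not be dim on its mean. ABCA12, a lipid transporter gene, had -3.83 ± 0.17 and DSC3, a desmosomal cadherin gene, -3.73 ± 0.20. CYP3A4, the main drug-metabolising P450 of the liver, had -1.85 ± 0.19. The sizes of these 3 are uncertain, since each averaged below 4.58 in the sh-p53 Nutlin and both DMSO groups.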
